A study of Homo sapiens with 15 samples.

Results

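The 10 aldehyde dehydrogenase genes were followed in A549 cells exposed to high or ambient oxygen with or without all-trans retinoic acid (ATRA). The members were chosen by symbol from a list of 10 (ALDH1A1, ALDH1A2, ALDH1A3, ALDH2, ALDH3A1, ALDH3A2, ALDH3B1, ALDH7A1, ALDH9A1 and ALDH18A1), and all 10 were among the 43388 genes counted, of which 19 belonged to the family by name. The rule used symbols only, but the list was drawn up with earlier results of these data known. A549 is a human lung adenocarcinoma line that is used as a model of the alveolar epithelium, and it was labelled as wild type in every sample. RNA-seq libraries were made from cells kept for 72 h in 95% oxygen (hyperoxia) or 21% oxygen (normoxia). Pretreatment lasted 24 h with ATRA, labelled as 1e-05 mM, or with its ethanol vehicle. The groups held 2 libraries of vehicle and 3 of ATRA at each oxygen level, and a further 2 at each oxygen level whose labels named neither agent, here called the groups without an agent. Of 15 libraries 14 had a group. All came from 1 cell line, and the labels did not say whether libraries of a group came from separate cultures, so the p-values measure only the spread between these libraries, which may be technical.

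Aldehyde dehydrogenases oxidise aldehydes to carboxylic acids with NAD+ or NADP+ as the electron acceptor. ALDH1A1, ALDH1A2 and ALDH1A3 turn retinaldehyde into retinoic acid, the last step in the synthesis of the compound that was added here. ALDH2 clears acetaldehyde in mitochondria, while ALDH3A1, ALDH3A2 and ALDH3B1 act on aromatic, fatty and lipid peroxidation aldehydes, which form in cells under oxidative stress. ALDH7A1 serves lysine breakdown, ALDH9A1 handles aminoaldehydes and takes part in carnitine synthesis, and ALDH18A1 makes the precursor of proline from glutamate. High ALDH1A1 and ALDH3A1 expression is a known trait of A549 cells.

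Gene counts summed to between 2642377 and 5605072 per library, and 3 counts, the limit that a count of 0 allows, corresponded to 0.535 to 1.14 CPM, the normalized count that divides by library size. This limit covers counting error only. Between 12657 and 20108 genes had a count. The lowest number came from replicate 1 of hyperoxia without an agent, which lay at -198.9 on the first principal component, whereas the 13 others lay between -9.27 and 35.6. Member calls that rest on that library are given with and without it. The 6 epithelial marker genes summed to 3286 to 11811 CPM, against at most 15.3 CPM for leukocyte, 12.5 CPM for fibroblast, 6.26 CPM for endothelial and 1.53 CPM for adipocyte markers. Of 8 alveolar type II markers, the surfactant genes SFTPA1 and SFTPA2 had no count in the 14 libraries and 5 surfactant genes had none in the vehicle groups. The 8 genes summed to 122 to 128 CPM in hyperoxia with vehicle, 108 to 116 CPM in hyperoxia with ATRA and 121 to 157 CPM in hyperoxia without an agent. In normoxia the sums were lower, at 53.5 to 77.5 CPM with vehicle, 63.0 to 93.9 CPM with ATRA and 50.1 to 78.4 CPM without an agent. The epithelial sum moved with both treatments: it was 3286 to 3469 CPM in hyperoxia with vehicle, 5471 to 6930 CPM in hyperoxia with ATRA, 7576 to 8477 CPM in normoxia with vehicle and 8566 to 11811 CPM in normoxia with ATRA. The part of these marker sums in the member results was not tested. In bulk RNA, fewer cells that express a gene and less of its RNA per cell cannot be told apart.

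The promoters of ALDH1A1 and ALDH1A3 are shown because these members share an enzymatic reaction but had fold changes of opposite sign under hyperoxia without an agent, where the call of ALDH1A3 was lost without the library that stood apart. Each sequence holds the 250 bases before the RefSeq transcription start in GRCh38.p14, read 5′ to 3′ on the gene's strand, with the matches to searched motifs in capitals. ALDH1A1 starts on the minus strand of chromosome 9 (window chr9:72953054-72953303), and ALDH1A3 on the plus strand of chromosome 15 (window chr15:100879581-100879830).
ALDH1A1: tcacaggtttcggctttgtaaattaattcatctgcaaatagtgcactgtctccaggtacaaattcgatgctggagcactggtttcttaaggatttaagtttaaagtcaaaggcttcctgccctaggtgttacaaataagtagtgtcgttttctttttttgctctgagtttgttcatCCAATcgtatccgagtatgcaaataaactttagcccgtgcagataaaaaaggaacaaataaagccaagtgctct
ALDH1A3: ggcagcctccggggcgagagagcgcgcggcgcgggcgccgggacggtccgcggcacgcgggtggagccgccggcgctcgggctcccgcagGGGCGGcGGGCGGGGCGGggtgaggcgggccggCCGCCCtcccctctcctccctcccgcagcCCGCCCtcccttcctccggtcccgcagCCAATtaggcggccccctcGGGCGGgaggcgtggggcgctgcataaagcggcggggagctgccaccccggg
In the ALDH1A1 window 38.4% of bases were G or C, and it held 6 CpG dinucleotides. The ALDH1A3 window was 82.4% G or C with 38 CpG dinucleotides, beside a median of 58% G or C over 35116 promoter windows of the same length. Both held a CCAAT box on the gene's strand, 74 to 70 bases before the start of ALDH1A1 and 71 to 67 bases before that of ALDH1A3. ALDH1A3 also held GGGCGG, a GC box, at 6 places on either strand, 2 of them sharing a base, and ALDH1A1 held none. Over the promoter windows, 32.0% held CCAAT and 42.6% held GGGCGG on either strand. Windows were found for 8 of the 10 members, 11 windows in all. None of those 8 members held TATAAA, TGACNNNGC (the core of an antioxidant response element) or AGGTCA (a half-site of nuclear receptors), which occurred in 10.7%, 10.9% and 12.1% of the promoter windows. These matches describe letters in a fixed window and were not tested for binding.

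**Figure D1:**
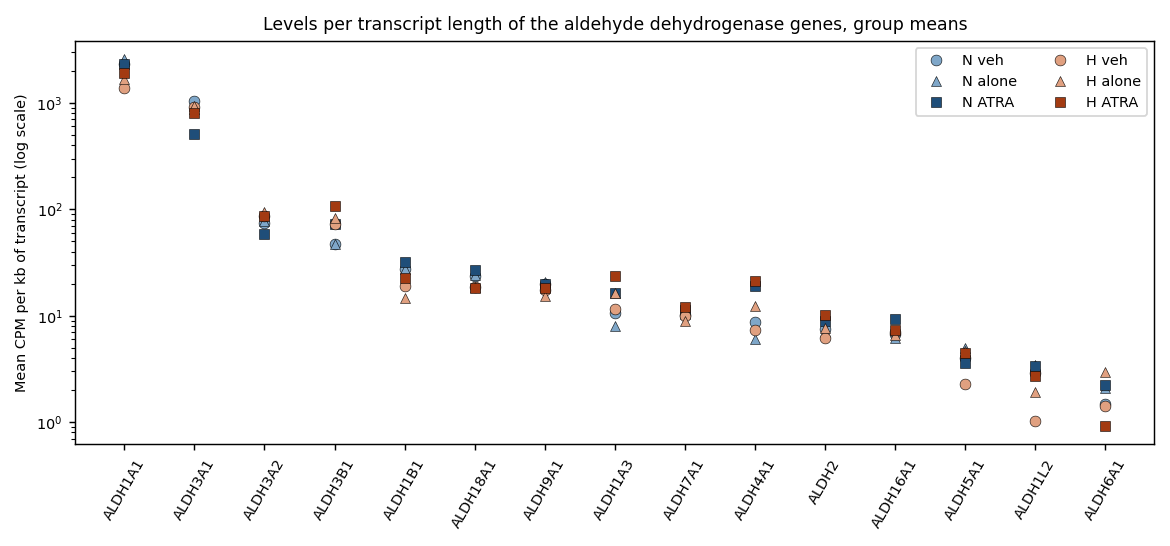
Mean level in CPM per kb of transcript on a log axis, for the 15 aldehyde dehydrogenase genes that could be tested, ordered by their level in normoxia with vehicle. Each symbol is the mean of a group (N, normoxia; H, hyperoxia; veh, vehicle; alone, no agent named), and ALDH1A1 and ALDH3A1 stand far above the other genes in all 6 groups.

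ALDH1A1 and ALDH3A1 dominated the family. In normoxia with vehicle, the level per length was 2296 ± 130 CPM per kb for ALDH1A1 and 1034 ± 107 CPM per kb for ALDH3A1 (SD, n = 2). ALDH3A2 followed at 73.8 ± 3.63 and ALDH3B1 at 47.3 ± 3.07 CPM per kb. Next came ALDH18A1 at 23.4 ± 0.818, ALDH9A1 at 19.7 ± 1.27, ALDH1A3 at 10.5 ± 0.743, ALDH7A1 at 10.2 ± 1.08 and ALDH2 at 7.52 ± 1.12 CPM per kb. Neighbours in this order did not overlap between their libraries except ALDH1A3 and ALDH7A1. The order changed lower down: in hyperoxia with ATRA, ALDH3B1 at 107 ± 9.59 CPM per kb stood above ALDH3A2 at 86.3 ± 8.82 CPM per kb, and ALDH1A3 stood above ALDH18A1 at 23.4 ± 5.74 CPM per kb (SD, n = 3). ALDH1A1 and ALDH3A1 together held 83.7% to 91.0% of the summed CPM of the 10 members in every library. ALDH1A2 had 12 counts in replicate 1 of hyperoxia with ATRA (2.16 CPM) and 0 in the 13 other libraries, so it could not be tested, and of the 3 retinaldehyde dehydrogenases ALDH1A1 and ALDH1A3 remained.

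**Figure D2:**
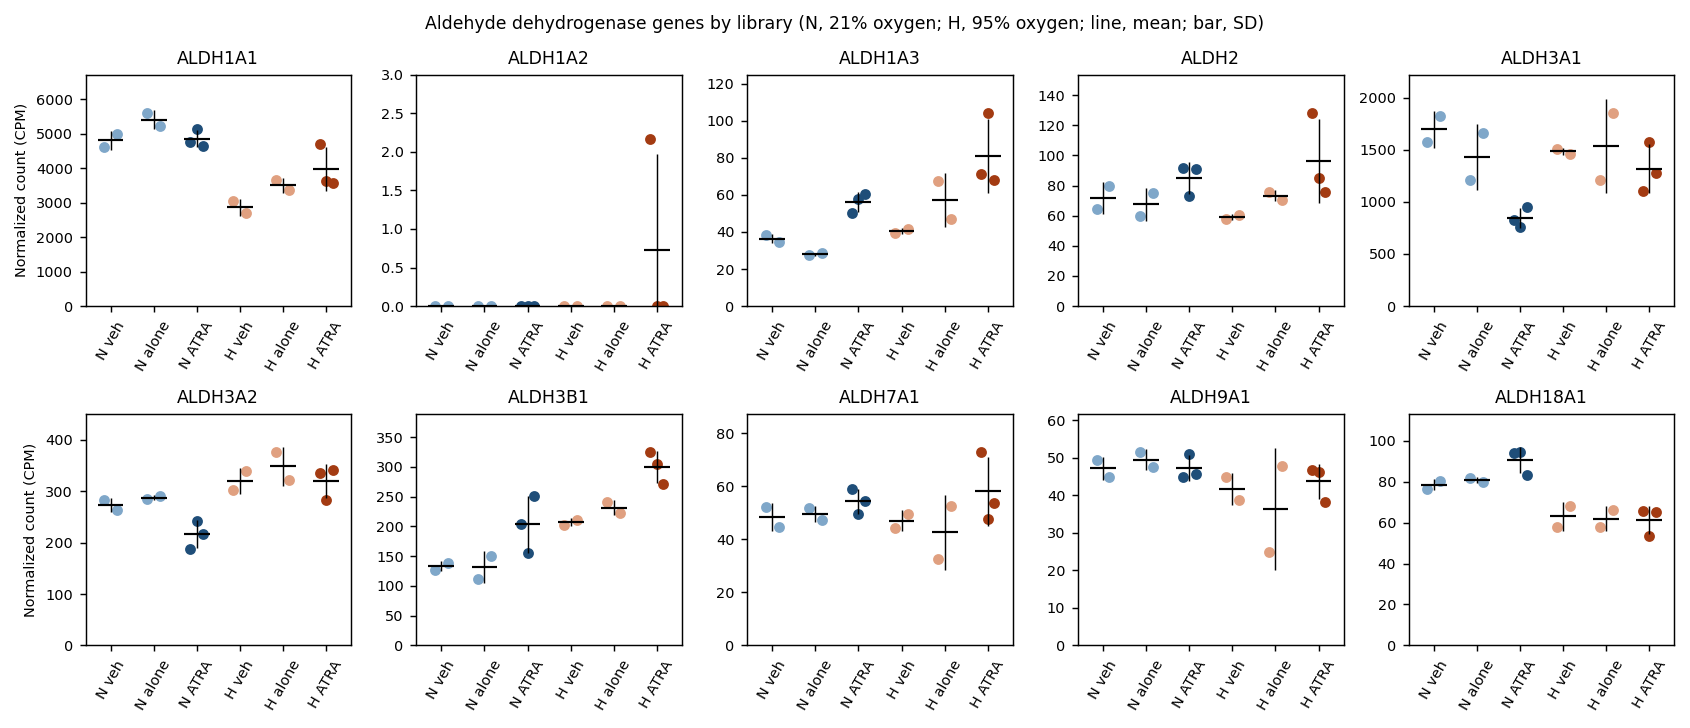
Normalized counts (CPM) of the 10 members in each of 14 libraries, 1 panel per gene with axes from 0 (points, libraries; line, group mean; vertical bar, SD; N, normoxia; H, hyperoxia; veh, vehicle; alone, no agent named). ALDH1A1 was lower in the hyperoxia vehicle libraries than in the normoxia vehicle libraries, and ALDH3A1 was lowest in the 3 libraries of normoxia with ATRA.

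In cells given vehicle, ALDH1A1 was called lower in hyperoxia and ALDH3B1 higher, but the call of ALDH3B1 was not stable. ALDH1A1 was at 3040 and 2687 CPM in the hyperoxia libraries and at 4620 and 5005 CPM in the normoxia libraries, and the groups did not overlap. With 2 libraries a group, 64.5% of all genes did not overlap either. Hyperoxia thus left 59.5% of the normoxia level, a log2 fold change of -0.75 (SE 0.14, edgeR quasi-likelihood test, Benjamini-Hochberg adjusted p = 0.000466). The fall was called under 8 of 8 other settings and in 4 of 4 fits that left out 1 library, with log2 fold changes from -0.87 to -0.69. ALDH3B1, which oxidises aldehydes from lipid peroxidation, was at 202 and 211 CPM in hyperoxia against 127 and 139 CPM in normoxia, again without overlap. It rose by 0.63 on the log2 scale (SE 0.17, edgeR adjusted p = 0.0124). That call was lost whichever of the 4 libraries was left out (edgeR adjusted p from 0.0638 to 0.148, log2 fold change from 0.54 to 0.68) and in the fit of all 14 libraries, where the edgeR adjusted p was 0.0505 against a range of 4.28e-05 to 0.148 over all alternatives. The fit of 14 libraries less the one that stood apart kept the call of ALDH3B1. So 2 of the 9 tested members (22.2%) were called, beside 17.5% of all 14957 genes tested. The median log2 fold change was -0.18 over the members and 0.01 over all genes.

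The other tested members did not pass the test in this comparison. Their hyperoxia and normoxia libraries did not overlap either, except those of ALDH7A1, as for 64.5% of all genes. ALDH1A3 was at 39.2 and 41.8 CPM in hyperoxia with vehicle and at 38.2 and 34.6 CPM in normoxia with vehicle (log2 fold change 0.16, SE 0.22, edgeR adjusted p = 0.690). ALDH3A1, which oxidises aromatic and medium-chain aldehydes, was at 1511 and 1463 CPM against 1571 and 1819 CPM (log2 fold change -0.19, SE 0.15, edgeR adjusted p = 0.456). ALDH18A1, ALDH2, ALDH3A2, ALDH7A1 and ALDH9A1 had log2 fold changes between -0.31 and 0.23. With vehicle and no-agent controls averaged at each oxygen level, ALDH1A3 and ALDH18A1 were called as well, at 0.60 and -0.35 on the log2 scale (edgeR adjusted p = 0.0196 and 0.0485). Both calls rested on the library that stood apart: without it the averaged controls gave 0.45 and -0.30 (edgeR adjusted p = 0.0620 and 0.122). Over their alternatives the adjusted p of edgeR or DESeq2 for ALDH1A3 ran from 0.0196 to 0.946 and that for ALDH18A1 from 0.0485 to 0.688.

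Hyperoxia was also compared with normoxia in the cells without an agent, in a fit of 14 libraries. ALDH1A1 was at 3658 and 3353 CPM in hyperoxia and at 5596 and 5221 CPM in normoxia, without overlap, as for 52.8% of all genes (log2 fold change -0.63, SE 0.14, edgeR adjusted p = 0.00796). ALDH3B1 was at 240.5 and 222 CPM against 112 and 151 CPM (log2 fold change 0.82, SE 0.19, edgeR adjusted p = 0.00926). ALDH1A3 was at 67.5 and 46.9 CPM against 27.5 and 28.5 CPM, a rise of 1.04 on the log2 scale (SE 0.25, edgeR adjusted p = 0.00960). Without the hyperoxia library that stood apart, ALDH1A1 kept its call at -0.69 (edgeR adjusted p = 0.0103), and so did ALDH3B1 at 0.76 (edgeR adjusted p = 0.024), whereas ALDH1A3 lost it (log2 fold change 0.74, edgeR adjusted p = 0.0849). The call of ALDH1A3 was also lost without replicate 1 or replicate 2 of normoxia (edgeR adjusted p = 0.100 and 0.0614), and that of ALDH3B1 without replicate 1 of normoxia (log2 fold change 0.58, edgeR adjusted p = 0.173). In a fit of these 4 libraries alone none of the 3 was called, with edgeR adjusted p of 0.133 for ALDH1A1, 0.182 for ALDH3B1 and 0.241 for ALDH1A3. Over all alternatives the adjusted p of edgeR or DESeq2 ran from 1.72e-05 to 0.133 for ALDH1A1, from 0.000162 to 0.182 for ALDH3B1 and from 0.000474 to 0.241 for ALDH1A3. These 3 of 9 tested members compare with 15.2% of 15339 genes. The median over all genes was -0.10 on the log2 scale here, and 0.10 over the members.

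Between the vehicle and no-agent groups no member passed the test at either oxygen level. In hyperoxia ALDH1A3 was at 40.5 ± 1.85 CPM with vehicle and 57.2 ± 14.6 CPM without an agent (SD, n = 2; log2 fold change -0.50, SE 0.24, edgeR adjusted p = 0.554). ALDH1A1 was at 2864 ± 250 CPM with vehicle and 3506 ± 215 CPM without an agent (log2 fold change -0.29, SE 0.14, edgeR adjusted p = 0.554). Of 15339 genes, 1 was called (0.00652%), and 1366 (8.91%) had an unadjusted p under 0.05, and 36.2% did not overlap. In normoxia 0 were called by edgeR or by DESeq2 and 133 (0.867%) had an unadjusted p under 0.05, and 33.1% did not overlap. With the library that stood apart as the sole hyperoxia library without an agent, ALDH1A3 and ALDH9A1 were called, at -0.70 and 0.77 on the log2 scale (edgeR adjusted p = 0.0333 and 0.0275, the lone library assumed to vary like the others). Without the library that stood apart, ALDH1A3 was at -0.21 (edgeR adjusted p = 1). Over the alternatives the adjusted p of edgeR or DESeq2 reached 1 for both.

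**Figure D3:**
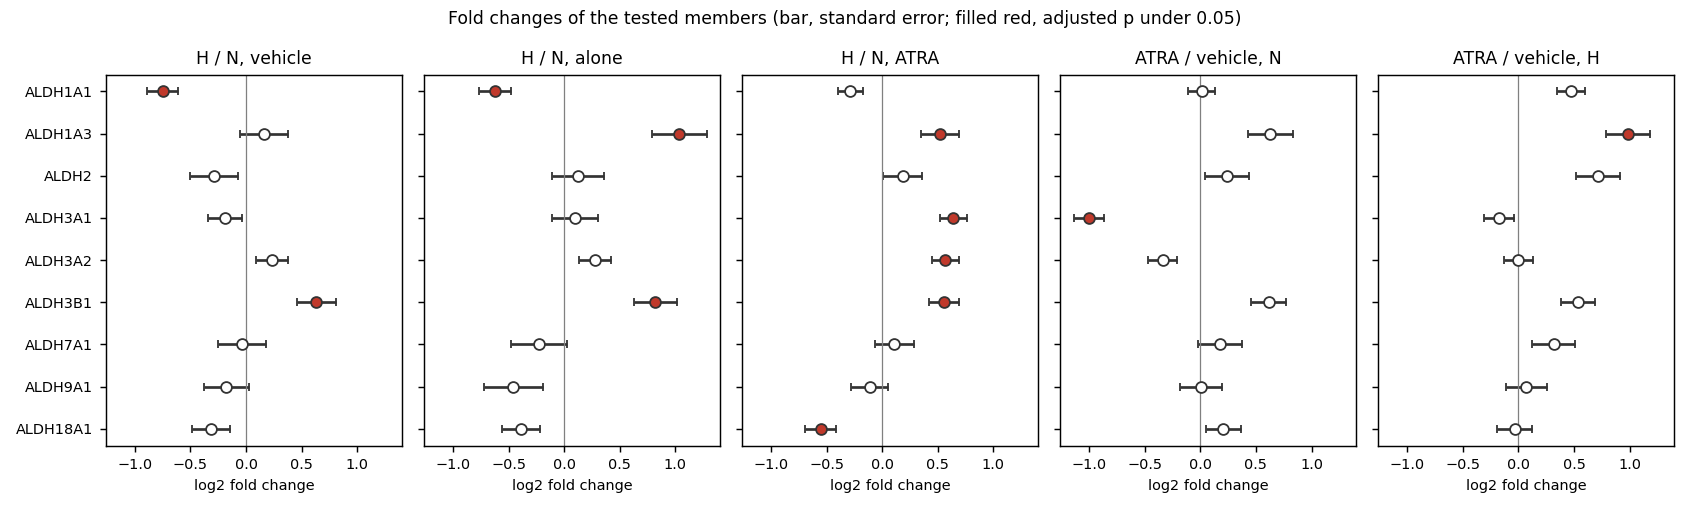
Log2 fold changes of the 9 tested members in the oxygen and ATRA comparisons, from edgeR (bar, SE; filled red, adjusted p under 0.05; H, hyperoxia; N, normoxia). ALDH1A1 lay below 0 in the 3 oxygen comparisons, and ALDH3A1 fell furthest with ATRA in normoxia, by 1.00.

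In cells given ATRA, 5 of the 9 tested members differed between hyperoxia and normoxia, beside 22.7% of all genes. ALDH3A1, ALDH3A2, ALDH3B1 and ALDH1A3 were higher in hyperoxia and ALDH18A1 was lower. ALDH3A1 was at 1107, 1569 and 1276 CPM in hyperoxia and at 825, 762 and 946 CPM in normoxia, so the groups did not overlap, as for 35.1% of all genes (log2 fold change 0.64, SE 0.12, edgeR adjusted p = 0.000649). ALDH3A2, the fatty aldehyde dehydrogenase, was at 336, 282 and 341 CPM in hyperoxia and at 188, 242 and 218 CPM in normoxia (log2 fold change 0.57, SE 0.12, edgeR adjusted p = 0.00124). Its groups did not overlap either, and the lowest hyperoxia library stood closest to the highest normoxia library. ALDH3B1 was at 324, 304 and 271 CPM against 203, 156 and 251 CPM (log2 fold change 0.56, SE 0.14, edgeR adjusted p = 0.00550). The 3 members of the ALDH3 subfamily were thus all higher in hyperoxia. ALDH18A1, which feeds proline synthesis, was at 65.4, 53.6 and 64.9 CPM in hyperoxia and at 94.2, 94.3 and 83.3 CPM in normoxia, a change of -0.55 on the log2 scale (SE 0.14, edgeR adjusted p = 0.00667). These 4 calls held under 6 of 6 other settings and in 6 of 6 fits without 1 library.

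The fifth call under ATRA was less stable. ALDH1A3 was at 71.4, 104 and 68.0 CPM in hyperoxia and at 50.3, 57.7 and 60.4 CPM in normoxia (log2 fold change 0.52, SE 0.17, edgeR adjusted p = 0.0328). It lost its call under 3 of 6 other settings and in 4 of 6 fits without 1 library, most of all without replicate 2 of hyperoxia with ATRA (log2 fold change 0.28, edgeR adjusted p = 0.242, within a range of 0.0186 to 0.242 over all alternatives). The other fits that lost it left out replicate 1, 2 or 3 of normoxia with ATRA (edgeR adjusted p = 0.129, 0.0560 and 0.0590). ALDH1A1 was at 4700, 3624 and 3583 CPM against 4769, 5129 and 4653 CPM, and its groups overlapped at 1 library (log2 fold change -0.29, SE 0.11, edgeR adjusted p = 0.0670). Without that library, replicate 1 of hyperoxia with ATRA, ALDH1A1 was called at -0.43 (edgeR adjusted p = 0.0101), as it was without replicate 3 of normoxia with ATRA (log2 fold change -0.34, edgeR adjusted p = 0.0386). With all libraries kept, DESeq2 also called it (log2 fold change -0.30, adjusted p = 0.0108), as did edgeR without a filter on low counts (adjusted p = 0.0312). Over the alternatives its adjusted p in edgeR or DESeq2 ran from 0.0101 to 0.211. The median log2 fold change was 0.18 over the 9 members and 0.01 over all genes.

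ATRA in normoxia lowered ALDH3A1. The gene was at 825, 762 and 946 CPM with ATRA and at 1571 and 1819 CPM with vehicle, and the highest ATRA library lay far below the lowest vehicle library. In this comparison 27.6% of all genes did not overlap. ATRA left 49.8% of the vehicle level (log2 fold change -1.0, SE 0.14, edgeR adjusted p = 0.000180). The call held under 8 of 8 other settings and in 5 of 5 fits without 1 library, with log2 fold changes from -1.11 to -0.88. In the no-agent cells ALDH3A1 was at 1205 and 1657 CPM, also above the 3 ATRA libraries. The share of ALDH3A1 in the summed CPM of the members was 13.1 ± 1.64% with ATRA (SD, n = 3) and 23.5 ± 0.985% with vehicle (SD, n = 2). It was the sole tested member of 9 to be called, beside 1.25% of all genes.

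ALDH3B1 and ALDH1A3 were higher with ATRA in normoxia in every library but did not pass the test. ALDH3B1 was at 203, 156 and 251 CPM with ATRA and at 127 and 139 CPM with vehicle (log2 fold change 0.61, SE 0.16, edgeR adjusted p = 0.0641). Leaving out replicate 2 of ATRA brought it past the threshold (log2 fold change 0.77, edgeR adjusted p = 0.00626), as did DESeq2 (adjusted p = 0.00980), within a range of 0.00321 to 0.746 over the alternatives. ALDH1A3 was at 50.3, 57.7 and 60.4 CPM against 38.2 and 34.6 CPM (log2 fold change 0.63, SE 0.20, edgeR adjusted p = 0.191). Against averaged vehicle and no-agent controls its log2 fold change was 0.82 (edgeR adjusted p = 0.0501), and it was called once the library that stood apart was left out of that fit (log2 fold change 0.81, edgeR adjusted p = 0.00553). ALDH3B1 was called in the latter fit too (log2 fold change 0.62, edgeR adjusted p = 0.0115). ALDH1A1 was at 4769, 5129 and 4653 CPM with ATRA and at 4620 and 5005 CPM with vehicle, and the groups overlapped (log2 fold change 0.01, SE 0.12, edgeR adjusted p = 0.994). The remaining members, ALDH2, ALDH3A2, ALDH7A1, ALDH9A1 and ALDH18A1, had log2 fold changes between -0.34 and 0.24. Of these, ALDH3A2 was lower in every ATRA library, at 188, 242 and 218 CPM against 283 and 264 CPM with vehicle (edgeR adjusted p = 0.370). ALDH18A1 was higher in every ATRA library (log2 fold change 0.21, SE 0.16, edgeR adjusted p = 0.829). Such a lack of overlap was seen for 27.6% of all genes.

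ATRA in hyperoxia raised ALDH1A3. It was at 71.4, 104 and 68.0 CPM with ATRA and at 39.2 and 41.8 CPM with vehicle, with no overlap, as for 30.7% of all genes. This was a 1.98-fold difference (log2 fold change 0.99, SE 0.20, edgeR adjusted p = 0.00687). The call rested on both vehicle libraries: without replicate 1 or replicate 2 of vehicle the edgeR adjusted p was 0.174 and 0.105, at log2 fold changes of 0.93 and 1.03. In the fit of 14 libraries the edgeR adjusted p was 0.0545, and it was 0.0620 against the averaged vehicle and no-agent controls, where the log2 fold change was 0.74. The fit of 14 libraries less the one that stood apart kept the call. Without the library that stood apart, the averaged controls gave 0.88 and the call was kept (edgeR adjusted p = 0.00934). Over all alternatives the adjusted p of edgeR or DESeq2 ran from 0.000210 to 0.174. It was the 1 member called of 9 tested, beside 2.21% of all genes.

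A trio of further members stood higher with ATRA than with vehicle in hyperoxia, each close to the threshold. ALDH1A1 was at 4700, 3624 and 3583 CPM with ATRA and at 3040 and 2687 CPM with vehicle (log2 fold change 0.47, SE 0.13, edgeR adjusted p = 0.0527). ALDH2, the mitochondrial acetaldehyde dehydrogenase, was at 128, 84.9 and 75.8 CPM against 57.8 and 60.4 CPM (log2 fold change 0.71, SE 0.20, edgeR adjusted p = 0.0654). ALDH3B1 was at 324, 304 and 271 CPM against 202 and 211 CPM (log2 fold change 0.54, SE 0.16, edgeR adjusted p = 0.0821). The ATRA and vehicle libraries did not overlap for any of the 3 genes, as for 30.7% of all genes. The hyperoxia libraries without an agent did overlap those with ATRA for ALDH1A1, at 3658 and 3353 CPM, and for ALDH2, at 75.9 and 70.7 CPM. For ALDH3B1 they lay below, at 240.5 and 222 CPM. DESeq2 called all of them, with adjusted p of 0.000543 for ALDH1A1, 0.0352 for ALDH2 and 0.0210 for ALDH3B1. Without replicate 3 of ATRA, edgeR called ALDH1A1 (log2 fold change 0.54, adjusted p = 0.0408) and ALDH2 (log2 fold change 0.86, adjusted p = 0.0209). Over all alternatives the adjusted p of edgeR or DESeq2 ran from 0.000543 to 0.502 for ALDH1A1, from 0.00645 to 0.525 for ALDH2 and from 0.0125 to 0.621 for ALDH3B1. ALDH3A1 was at 1107, 1569 and 1276 CPM with ATRA and at 1511 and 1463 CPM with vehicle, and the groups overlapped (log2 fold change -0.18, SE 0.14, edgeR adjusted p = 0.640). The median log2 fold change was 0.32 over the members and 0.00 over all genes.

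Whether ATRA acted differently in hyperoxia and normoxia was tested with an interaction term, the ATRA log2 fold change in hyperoxia minus that in normoxia. No member passed the threshold, beside 0.14% of all genes. ALDH3A1 had the smallest p among the members: its interaction was 0.83 (SE 0.20, unadjusted p = 0.000356, edgeR adjusted p = 0.130). In normoxia ALDH3A1 was at 844 ± 94.0 CPM with ATRA (SD, n = 3) and 1695 ± 176 CPM with vehicle (SD, n = 2), against 1317 ± 234 and 1487 ± 33.4 CPM in hyperoxia. It passed with DESeq2 (adjusted p = 0.000224), without a filter on low counts (edgeR adjusted p = 0.00178) and without replicate 1 of hyperoxia with ATRA (0.94 on the log2 scale, edgeR adjusted p = 0.0403), within a range of 0.000224 to 1. ALDH1A1 had an interaction of 0.46 (SE 0.18, edgeR adjusted p = 0.547), which DESeq2 called (adjusted p = 0.0460, within a range of 0.0460 to 1.00). The oxygen and ATRA comparisons share libraries, so their values are not independent of each other.

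**Figure D4:**
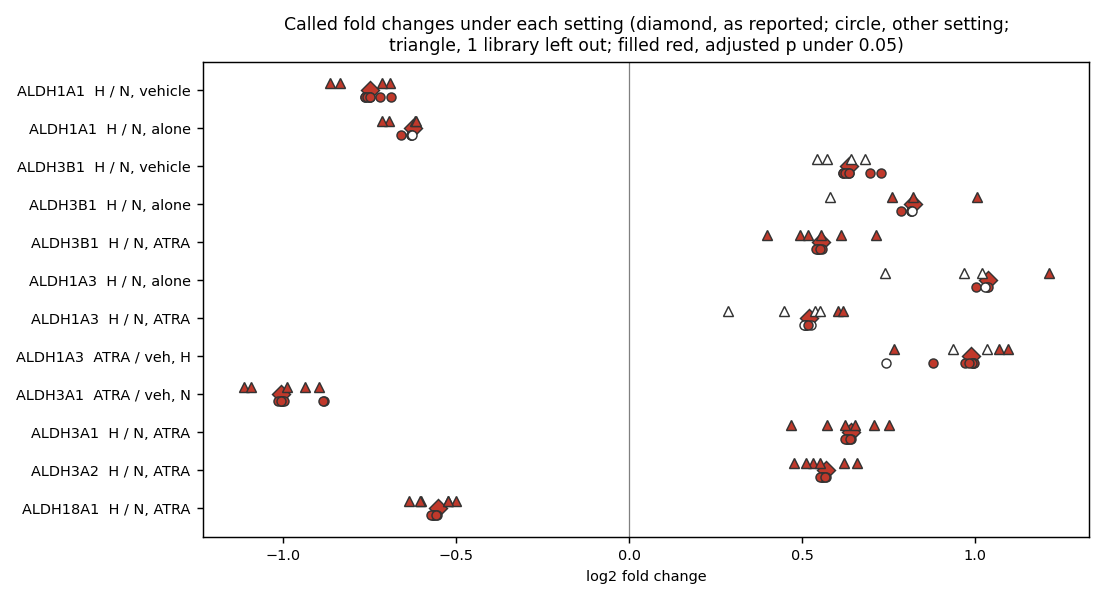
Log2 fold changes of the called member results as reported (diamonds), under other settings (circles) and with 1 library left out (triangles), filled red where the adjusted p was under 0.05. ALDH1A1 under hyperoxia with vehicle and ALDH3A1 with ATRA in normoxia are red under every setting shown, whereas ALDH3B1 under hyperoxia with vehicle is open in its 4 fits without 1 library.

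Among the 9 other aldehyde dehydrogenase genes, 6 could be tested. ALDH4A1, the mitochondrial enzyme that finishes proline breakdown, rose with ATRA at both oxygen levels. In hyperoxia it was at 81.3, 61.2 and 57.1 CPM with ATRA and at 22.0 and 23.8 CPM with vehicle (log2 fold change 1.54, SE 0.21, edgeR adjusted p = 0.000189). In normoxia it was at 52.7, 55.9 and 70.3 CPM with ATRA and at 28.5 and 25.9 CPM with vehicle (log2 fold change 1.14, SE 0.21, edgeR adjusted p = 0.00545). ATRA and vehicle libraries did not overlap at either oxygen level, as for 30.7% of all genes in hyperoxia and 27.6% in normoxia. The normoxia call was lost without replicate 1 or replicate 2 of vehicle (edgeR adjusted p = 0.0732 and 0.184, within a range of 2.12e-05 to 0.184), while the hyperoxia call held throughout. ALDH1B1, a mitochondrial relative of ALDH2, was lower in hyperoxia with vehicle (log2 fold change -0.53, SE 0.18, edgeR adjusted p = 0.0473) and with ATRA (log2 fold change -0.50, SE 0.15, edgeR adjusted p = 0.0171). Its vehicle call was lost without any 1 of the 4 libraries (edgeR adjusted p from 0.136 to 0.244), and its ATRA call without replicate 2 of either ATRA group (edgeR adjusted p = 0.0582 and 0.0567). Both were lost in the fit of 14 libraries (edgeR adjusted p = 0.333 and 0.189). ALDH1L2, a mitochondrial folate enzyme, was at 7.16 and 7.95 CPM in hyperoxia and 21.5 and 21.5 CPM in normoxia with vehicle (log2 fold change -1.50, SE 0.48, edgeR adjusted p = 0.0348), and this call was lost without any 1 of the 4 libraries (edgeR adjusted p from 0.103 to 0.164) and in the fit of 14 libraries (edgeR adjusted p = 0.136). ALDH6A1 was lower in hyperoxia with ATRA (log2 fold change -1.22, SE 0.40, edgeR adjusted p = 0.0323), a call kept in 1 of 6 fits without a library and lost in the fit of 14 libraries (edgeR adjusted p = 0.104) and of only the groups compared (edgeR adjusted p = 0.0671). The fit of 14 libraries less the one that stood apart kept these calls of ALDH1B1, ALDH1L2 and ALDH6A1. In cells without an agent ALDH4A1 was higher in hyperoxia (log2 fold change 1.01, SE 0.25, edgeR adjusted p = 0.0122; 0.161 without replicate 1 of normoxia) and ALDH1B1 was lower (log2 fold change -0.94, SE 0.29, edgeR adjusted p = 0.0372; -0.42 with an adjusted p of 0.288 without the library that stood apart, and 0.111 and 0.133 without replicate 1 or 2 of normoxia). ALDH5A1 and ALDH16A1 were called in none of the oxygen or ATRA comparisons as reported. ALDH5A1 was lower in hyperoxia with vehicle (log2 fold change -0.83, SE 0.33, edgeR adjusted p = 0.0882). It was called there in the fit of only the groups compared (log2 fold change -0.85, edgeR adjusted p = 0.0210). With averaged controls without the library that stood apart, its log2 fold change was -1.06. The gene GPLD1, which overlaps ALDH5A1, had 112% of its counts, and BBOF1, which overlaps ALDH6A1, had 36.9%. Of the genes overlapping a member, the sole one among the genes counted lay at ALDH2 and had 0.0435% of the counts of ALDH2. The others were not counted, so their part in the member counts could not be checked.

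Genes that make, bind or break down retinoids were read beside ALDH1A1 and ALDH1A3. Of 15 genes listed, 9 were tested, and with ATRA 3 rose and 0 fell at each oxygen level. For this list and those below, the called share of all genes was 17.5% for hyperoxia with vehicle and 22.7% with ATRA. For ATRA it was 2.21% in hyperoxia and 1.25% in normoxia. CYP26B1, which degrades retinoic acid, rose from 36.1 ± 1.09 CPM (SD, n = 2) to 629 ± 240 CPM (SD, n = 3) in hyperoxia (log2 fold change 4.13, SE 0.29, edgeR adjusted p = 2.54e-08). In normoxia its log2 fold change was 3.70 (SE 0.28, edgeR adjusted p = 7.38e-08). DHRS3, which reduces retinaldehyde to retinol, rose by 1.86 in hyperoxia and 1.63 in normoxia on the log2 scale (edgeR adjusted p = 4.84e-07 and 4.50e-06). STRA6, a transporter of retinol, rose by 1.86 and 1.47 (edgeR adjusted p = 2.75e-07 and 1.35e-05). These 3 genes were called under every alternative run for the ATRA comparisons. With vehicle, hyperoxia changed STRA6 among the 9 tested genes (log2 fold change 0.56, edgeR adjusted p = 0.0242), a call lost in 3 of 4 fits without 1 library: those without replicate 2 of hyperoxia or either normoxia library (edgeR adjusted p from 0.142 to 0.503). It was also lost in the fit of 14 libraries (edgeR adjusted p = 0.0750), but not once the library that stood apart was left out. STRA6 was also higher in hyperoxia with ATRA (log2 fold change 0.95, SE 0.13, edgeR adjusted p = 1.48e-05) and without an agent (log2 fold change 2.04, SE 0.19, edgeR adjusted p = 4.29e-06). These 2 calls held under 6 of 6 and 4 of 4 other settings.

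Other enzymes that reduce or oxidise aldehydes were counted next. Of 19 listed 12 were tested: 2 rose and 2 fell in hyperoxia with vehicle, 2 rose and 1 fell in hyperoxia with ATRA, and 0 rose with ATRA while 2 fell in hyperoxia and 3 fell in normoxia. AKR1B1, an aldose reductase, fell with ATRA by 0.75 on the log2 scale in hyperoxia (edgeR adjusted p = 0.00131) and by 1.05 in normoxia (edgeR adjusted p = 5.80e-05). The hyperoxia call of AKR1B1 was lost without replicate 1 of vehicle (edgeR adjusted p = 0.0906). AKR1B10, a reductase of retinaldehyde and lipid aldehydes, was at 2278 ± 212 CPM with ATRA (SD, n = 3) and 4149 ± 173 CPM with vehicle (SD, n = 2) in normoxia (log2 fold change -0.86, SE 0.11, edgeR adjusted p = 9.04e-05). AKR1B15, a near-identical neighbour of AKR1B10 whose counts are uncertain for that reason, also fell (log2 fold change -1.07, edgeR adjusted p = 0.00317; 0.0943 without replicate 2 of vehicle). AKR1B1, AKR1B10 and AKR1B15 thus moved in the direction of ALDH3A1 in normoxia. In hyperoxia with vehicle AOX1, an aldehyde oxidase, rose by 2.71 on the log2 scale (edgeR adjusted p = 1.10e-05; 0.132 in the fit of 14 libraries, the upper end of its range, and 0.0576 with averaged controls) and CBR1, a carbonyl reductase, fell by 1.01 (edgeR adjusted p = 0.000270). Both of those fits called AOX1 once the library that stood apart was left out.

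The list of 20 NRF2 targets, genes of the antioxidant response, was tested in full. With vehicle 7 rose and 5 fell in hyperoxia, and with ATRA 8 rose and 4 fell. In each case 60% of the list was called, beside 17.5% and 22.7% of all genes. The calls went in both directions. The median log2 fold change of the list was 0.02 with vehicle and 0.05 with ATRA, beside 0.01 over all genes in both. The genes named for hyperoxia were those of smallest p with vehicle and all rose, so they leave out the genes that fell. HMOX1, heme oxygenase, was at 1071 ± 45.0 CPM in hyperoxia and 388 ± 11.3 CPM in normoxia with vehicle (SD, n = 2; log2 fold change 1.47, SE 0.14, edgeR adjusted p = 1.41e-07). The ferritin chains FTH1 and FTL rose by 1.18 and 1.12 on the log2 scale (edgeR adjusted p = 6.84e-07 and 3.65e-06). In normoxia ATRA lowered 7 of the 20 and raised 0, and in hyperoxia it lowered 4 and raised 0. SRXN1, a sulfiredoxin, fell by 0.71 on the log2 scale with ATRA in normoxia (edgeR adjusted p = 0.00274; 0.0600 without replicate 1 of vehicle). The median over the 20 genes was -0.34 with ATRA in normoxia, beside 0.00 over all genes.

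ALDH18A1 was read beside genes of proline and ornithine metabolism, of which 10 of 11 listed were in the files and 9 were tested. In hyperoxia 1 rose and 3 fell with vehicle, and 0 rose and 3 fell with ATRA. In both cases the 3 that fell were PYCR1, PSAT1 and ASNS, of which only PYCR1 acts in proline synthesis. With ATRA the calls of PSAT1 and ASNS were lost in the fit of 14 libraries (edgeR adjusted p = 0.295 and 0.181). PYCR1, which turns the ALDH18A1 product into proline, fell by 1.32 on the log2 scale with vehicle (SE 0.20, edgeR adjusted p = 7.71e-05) and by 0.94 with ATRA (SE 0.17, edgeR adjusted p = 0.000275). PSAT1 and ASNS, enzymes of serine and asparagine synthesis placed in this list, fell by 1.53 and 1.59 with vehicle (edgeR adjusted p = 2.10e-07 and 1.77e-05). PSAT1 rose with ATRA in hyperoxia by 0.62 (edgeR adjusted p = 0.0159), was at -0.51 in normoxia (edgeR adjusted p = 0.0598; called by DESeq2 at 0.0161) and had an interaction of 1.13 (SE 0.19, edgeR adjusted p = 0.0111). That interaction was lost without replicate 1 of hyperoxia with vehicle or either normoxia vehicle library (edgeR adjusted p from 0.0800 to 0.219), and its rise in hyperoxia without either vehicle library there (edgeR adjusted p = 0.438 and 0.108). Both calls were also lost in the fit of 14 libraries (edgeR adjusted p = 1.00 and 0.511) and against averaged vehicle and no-agent controls, where the interaction was 0.59 and the rise 0.12 (edgeR adjusted p = 0.910 and 0.841). The fit of 14 libraries less the one that stood apart kept both. Without the library that stood apart, the averaged controls gave 1.00 and 0.52 and both were called (edgeR adjusted p = 0.0184 and 0.0472).

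For ALDH7A1 and ALDH9A1 the list held 12 genes of lysine, choline and carnitine metabolism, 7 of them tested. In hyperoxia 0 rose, and 2 fell with vehicle and 3 with ATRA, while 0 were called in either ATRA comparison. SHMT2 and SHMT1, which interconvert serine and glycine, fell by 0.96 and 1.19 on the log2 scale in hyperoxia with vehicle (edgeR adjusted p = 0.000156 and 0.000226). ALDH7A1 and ALDH9A1 themselves varied little, with group means from 42.8 to 58.2 CPM and from 36.4 to 49.5 CPM. They were at their lowest, 32.8 and 25.0 CPM, in the hyperoxia library that stood apart.

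Beside ALDH3A2, 11 genes of sphingolipid and fatty aldehyde metabolism were tested. In hyperoxia 4 rose and 0 fell with vehicle, 4 rose and 2 fell with ATRA, and 0 were called in either ATRA comparison. ACER2, a ceramidase, was at 31.7 ± 3.89 CPM in hyperoxia and 5.09 ± 0.175 CPM in normoxia with vehicle (SD, n = 2; log2 fold change 2.63, SE 0.34, edgeR adjusted p = 8.21e-06). SPHK1, a sphingosine kinase, rose by 2.76 on the log2 scale (SE 0.49, edgeR adjusted p = 0.000335). PHYH, which prepares phytanic acid for breakdown, rose by 1.15 with vehicle (edgeR adjusted p = 0.00587), a call lost in 3 of 4 fits without 1 library (edgeR adjusted p up to 0.0786; kept without replicate 2 of hyperoxia), and by 1.09 with ATRA (edgeR adjusted p = 0.00166).

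For the member with the smallest p in 3 of the comparisons, the genes most alike over the 14 libraries were sought among 10418 genes, by the root mean square difference of centred log2 CPM. For ALDH1A1 these were IRF2BP2 (0.12), PGD (0.13) and DSP (0.13), and ALDH18A1 stood 233rd at 0.22. They were GPRC5A (0.22), SGSM3 (0.24) and KANSL3 (0.25) for ALDH1A3, and ALDH3B1 stood 15th for it at 0.28. For ALDH3A1 they were MBTPS2 (0.22), EFR3B (0.23) and SNAPC2 (0.24), and ALDH3A2 stood 290th at 0.34. The median difference over all genes was 0.49 for ALDH1A1, 0.65 for ALDH1A3 and 0.54 for ALDH3A1. A gene that did not vary would differ by 0.32 from ALDH1A1, 0.52 from ALDH1A3 and 0.39 from ALDH3A1, so ALDH3A2 was little closer to ALDH3A1 than that. All points share their libraries, so these values describe likeness and carry no test.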

How the data were processed

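RNA-seq was performed on A549 cells in 15 samples. According to the study's methods, the authors prepared stranded libraries, discarded trimmed reads under 50 nt with Trimmomatic 0.38, aligned to hg38 with HISAT2 and counted reads per gene with HTSeq. The deposited values are raw counts per gene for each sample. Rows that name no gene (such as reads without a feature or with several alignments) held 75.2% to 78.4% of each file's total and were left out. Whether counting used strand is not given in the sources used here. The 1 sample whose title and treatment label disagree entered no comparison.

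Counts were tested with edgeR 4.0.16 (R 4.3.3; TMM factors, filterByExpr with a minimum count of 10 and a minimum total of 15, quasi-likelihood F test, Benjamini-Hochberg over all genes, threshold 0.05), in 1 fit of the 10 vehicle and ATRA libraries and, for groups without an agent, a fit of 14 libraries. The SE is the log2 fold change divided by the square root of F. CPM uses TMM factors of the 14 libraries. Levels are compared between genes per kb of the Ensembl canonical transcript (GENCODE 44), and log2 CPM carries a prior count of 2. The code was tested on simulated data. Libraries of a group differed by more than sampling noise, so none was merged. Alternatives were DESeq2 1.42.0, RLE factors, no count filter, fits of other library sets, pooled controls and each library left out; those without the outlying library (13 libraries, pooled controls) were added after seeing the data. Positions and promoters are from RefSeq GRCh38.p14, with no entry for ALDH2 and ALDH3A1.

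The members, gene lists and rules were chosen with earlier results of these data known. Named were the members, the 9 other family genes, up to 4 genes of smallest p per list (those shown passed the threshold), overlapping genes with at least 10% of the counts, and the 3 genes most alike to the member of smallest p (mean CPM at least 10); a listed gene that this rule also named is not reported here.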

Additional observations from a re-analysis of the deposited data

Results flagged for a closer look

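The sample that entered no group, because its title and its treatment label name different treatments, stood above every control library in 2 members. ALDH2 was at 85.5 CPM there, against 57.9 to 79.6 CPM in the 8 vehicle and no-agent libraries. ALDH3B1 was at 248 CPM, against 112 to 241 CPM in those libraries. These values were scaled with TMM factors of 15 libraries and are those of 1 library, so neither was tested.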

How the results depend on the processing

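No paired analysis was possible because the labels carry no replicate numbers that groups share. Over 72 pairs of a tested member and a comparison, 819 alternative values were computed: 766 kept their direction or side of the threshold, 30 gained a call, 23 lost one and 0 reversed a called direction. AOX1, which is no member, had a log2 fold change of 1.30 that was not called in cells without an agent. It reversed to -7.65 without replicate 2 of hyperoxia, which leaves the outlying library alone there with 0 counts (so that this fitted value is no measure of size), and was 2.34 and called without the outlying library.

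Counts of genes called (members called) moved as follows, and the cause was not tested. For oxygen with vehicle, 2616 (2) became 1420 (1) in the fit of 14 libraries, 4665 genes in the fit of only the groups compared, 3549 (4) with pooled controls and 3962 (2) with pooled controls without the outlying library, so that the rise to 4 members rested on that library. For oxygen with ATRA, 3391 became 1975 in the fit of 14 libraries. For ATRA in hyperoxia, 331 (1) became 116 (0) in the fit of 14 libraries, 177 (0) with pooled controls (253 and 1 without the outlying library) and 522 (4) without a count filter, and 2, 4 and 2 members were called with RLE factors, DESeq2 and only the groups compared. For ATRA in normoxia, 187 (1) became 70 genes in the fit of 14 libraries, 300 (2) without a filter and 315 (3) with pooled controls without the outlying library, and DESeq2 called 2 members. The interaction count of 21 (0) became 4 genes in the fit of 14 libraries, 6 with pooled controls, 91 (1) without a filter and 103 (2) with DESeq2. In the comparisons above, the fit of 13 libraries, without the outlying one, called as many members as the main fit. Its counts of genes lay within 1.5-fold of the main ones. For oxygen without an agent, 2324 (3) became 58 (0) with only the groups compared. Between vehicle and no agent, 1 gene in hyperoxia became 89 without a filter, 10 with DESeq2 and 0 with only the groups compared, and 0 in normoxia became 3 without a filter.

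Leaving out 1 library gave 1386 to 1523 genes and 1 member for oxygen with vehicle, 2715 to 3359 genes and 4 to 6 members for oxygen with ATRA, 83 to 449 genes and 0 to 3 members for ATRA in hyperoxia, 56 to 165 genes and 1 to 2 members for ATRA in normoxia, 4 to 28 genes and 0 to 1 member for the interaction, 969 to 7364 genes and 1 to 6 members for oxygen without an agent, and 1 to 5630 genes and 0 to 2 members for vehicle against no agent in hyperoxia. The highest counts of the last 2 came without replicate 2 of hyperoxia without an agent. A group left with 1 library is assumed to vary like the others. Groups of 2 or 3 libraries and members near 30 to 60 CPM limit what could be called.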

Other observations

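In the same ungrouped sample ALDH1A1 was at 2986 CPM, within the 2693 to 5608 CPM of the 8 vehicle and no-agent libraries. ALDH3A1 was at 1699 CPM, ALDH3A2 at 345 CPM, ALDH1A3 at 51.6 CPM, ALDH9A1 at 46.7 CPM and ALDH7A1 at 45.4 CPM, each within the range of those libraries. ALDH18A1 was at 57.7 CPM, just below their lowest value of 57.9 CPM, and ALDH1A2 had 0 counts.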
